A study of Rattus norvegicus with 6 samples.

Results

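The cytochrome P450 genes of the rat kidney, Cyp2e1 apart, were compared between rats given p-nitroanisole and rats given vehicle. Members were every gene on the array whose symbol, found from the accession of its probe, starts with Cyp and a digit. The rule left out 5 genes: Cyp2e1, Cyp51, Cyp24a1, Cyp27b1 and Cyp11a1. It gave 66 genes with 108 probes. Of these, 38 genes with 61 probes were tested, since 1 or both groups had a probe that the scanner software called well above background on each of the 3 arrays, within a table of 32197 rows (12207 named genes and 19990 probes without a gene name here).

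Total RNA of the renal cortex was hybridised to 1-colour Agilent arrays, 1 array per rat. All rats were male Sprague-Dawley, Crl:CD(SD), bought at 5 weeks of age. The p-nitroanisole group received 500 mg/kg per day for 4 weeks (3 rats), and the vehicle group received corn oil for 4 weeks (3 rats). Neither the route of dosing nor the time between the last dose and sampling is given in the sources used here.

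Cytochromes P450 are haem enzymes that insert an oxygen atom into their substrate, with electrons supplied by P450 reductase in the endoplasmic reticulum or by ferredoxin in mitochondria. Families Cyp1 to Cyp3 oxidise drugs and other foreign compounds, many Cyp2c and Cyp2j enzymes also turn arachidonic acid into epoxides, and Cyp4a and Cyp4f enzymes hydroxylate the end carbon of fatty acids. In the kidney these arachidonic acid products act on vessel tone and salt transport. The O-demethylation of p-nitroanisole is itself a standard assay reaction of P450 enzymes.

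Levels are log2 of the processed spot intensity relative to the 75th percentile of the array, so a level of 0 is that percentile, and probes of different genes are not compared in level. Between 66.4% and 68.1% of probes were well above background on p-nitroanisole replicates 2 and 1, 69.0% on p-nitroanisole replicate 3, and 68.5% to 69.2% on the vehicle arrays. The 3 vehicle arrays and p-nitroanisole replicates 1 and 2 lay on slide 1, and p-nitroanisole replicate 3 lay on slide 2. P-nitroanisole replicates 1 and 2 were in row 2 of their slide and the other 4 arrays in row 1. Each value below that is given "within slide 1" thus leaves out p-nitroanisole replicate 3. Each given "within row 1" leaves out p-nitroanisole replicates 1 and 2. Within slide 1 the p-nitroanisole arrays were in row 2 and the vehicle arrays in row 1. Within row 1 the p-nitroanisole array was on slide 2 and the vehicle arrays on slide 1. Neither kind of value can therefore tell treatment apart from the place of the array. The labels call the samples biological replicates, and 3 arrays per group limit the precision of every value. Cyp2e1 itself, with levels of 5.38, 5.32 and 5.36 in p-nitroanisole and 6.33, 6.39 and 6.42 in vehicle rats, was lower by 1.03 on the log2 scale (limma adjusted p = 0.0379).

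Detection differed widely between subfamilies. Of the 66 genes, 21 were not well above background on any of the 6 arrays. They include Cyp1a1 and Cyp1a2, the usual targets of the aryl hydrocarbon receptor, Cyp2b1, the usual target of phenobarbital in rat liver, and Cyp7a1, the rate-limiting enzyme of bile acid synthesis in liver. The male- and female-typical liver enzymes Cyp2c13, Cyp3a2 and Cyp2c12, and Cyp11b1, Cyp11b2 and Cyp19a1 of steroid synthesis, were among them too. None of the 5 Cyp3a genes was tested: 4 were above background on no array, and Cyp3a18 was so on 1, p-nitroanisole replicate 1. Another 7 genes in all were above background on some arrays without filling a group. A probe in that state gives only a bound, so no direction is given for these 28 genes.

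**Figure D1:**
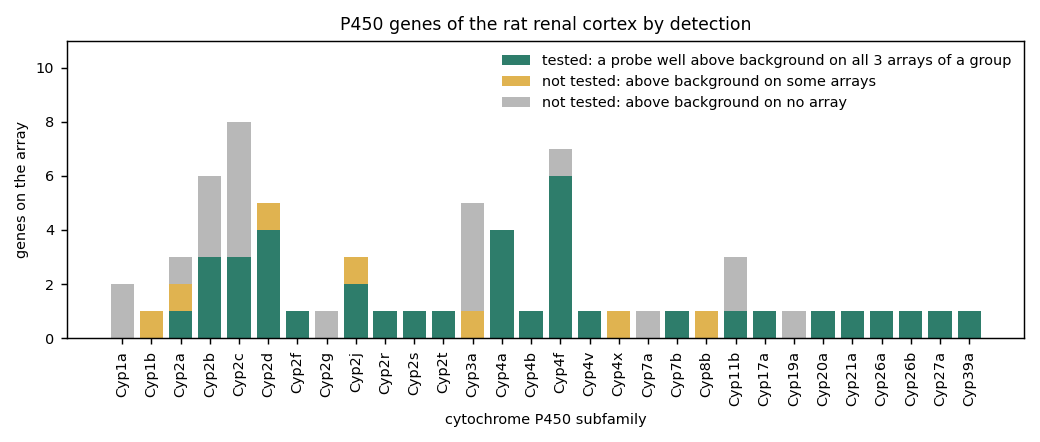
Number of P450 genes on the array per subfamily (bars), split by whether a probe was well above background. All 4 Cyp4a and 6 of 7 Cyp4f genes were tested, against 3 of 8 Cyp2c, 3 of 6 Cyp2b and 0 of 5 Cyp3a genes.

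No tested P450 gene changed at an adjusted p under 0.05 in limma (0 of 38), against 0.0745% of all 32197 rows (24 rows). The smallest adjusted p was 0.178, for Cyp2f4. At an unadjusted p under 0.05 there were 4 of 38 (10.5%), against 13.4% of all rows. The 2 groups did not overlap for 5 of 38 (13.2%), 2 higher and 3 lower with p-nitroanisole, against 22.2% of all rows. Each share rests on few genes, and its distance from the background was not tested. For the 17 genes of the Cyp2 family the shares were 17.6% and 23.5%. Both were 8.33% for the 12 genes of the Cyp4 family, and 0% for the 9 genes of other families.

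In direction, 16 of the 38 genes had a higher and 22 a lower mean in p-nitroanisole rats. That count includes 4 genes that passed the filter through 1 group: Cyp2c24 and Cyp2b3 through p-nitroanisole, and Cyp4f18 and Cyp39a1 through vehicle. Of the 34 genes above background on all 6 arrays, 13 were higher, with a median of -0.07. The median log2 difference, p-nitroanisole minus vehicle, was -0.05, against 0.01 over all rows. For 34 of 38 genes the difference was under 0.5 in size. The median size was 0.19, against 0.12 over all rows, and the median standard deviation within groups was 0.20, against 0.14. In bulk tissue, fewer cells of a type and less RNA per cell cannot be told apart in any of these values.

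**Figure D2:**
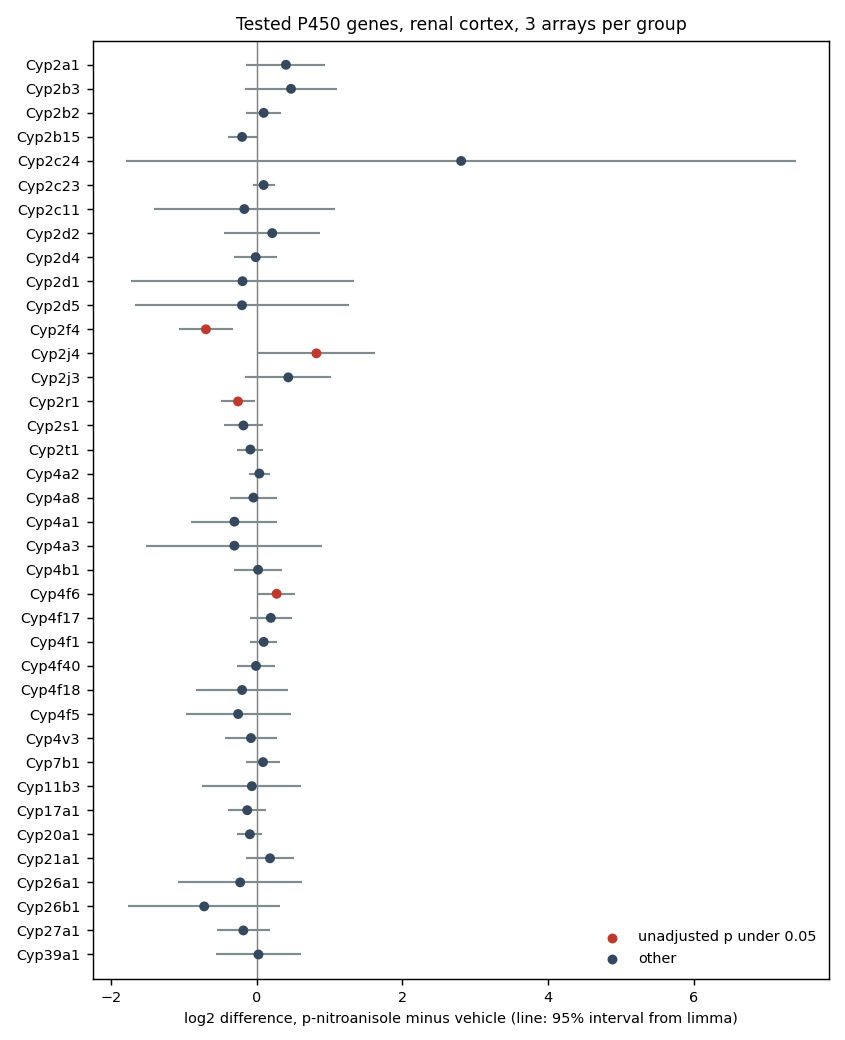
Log2 difference between p-nitroanisole and vehicle rats (points) with its 95% interval (lines) for the 38 tested P450 genes, ordered by family. Red points mark the 4 genes at an unadjusted p under 0.05. Most points lie within 0.5 of 0, and the widest interval, of Cyp2c24, runs from -1.79 to 7.40.

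Cyp2f4, whose enzyme family activates naphthalene in the lung, gave the smallest p of the P450 genes. Its levels were -1.28, -0.85 and -1.18 in p-nitroanisole rats and -0.29, -0.64 and -0.29 in vehicle rats. All 3 treated rats lay below all 3 vehicle rats. The difference was -0.70 ± 0.15 (SE, n = 3 each; 95% interval -1.07 to -0.32), with an adjusted p of 0.178 in limma. It was -0.66 within slide 1 and -0.77 within row 1, and lay between -0.61 and -0.82 when 1 array was left out. The 200 bases before its start are shown because it is the member with the smallest p. They come from RefSeq on build GRCr8, on the gene's strand, at chr1:91543568-91543767 (plus strand), and hold none of the motifs whose letters are given with the promoter counts.
Cyp2f4: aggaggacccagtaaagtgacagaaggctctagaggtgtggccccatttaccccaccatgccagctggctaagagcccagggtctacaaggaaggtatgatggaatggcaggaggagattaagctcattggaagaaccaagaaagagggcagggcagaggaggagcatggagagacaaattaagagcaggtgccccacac

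Cyp2r1, a vitamin D hydroxylase, was also without overlap. Levels were -1.42, -1.54 and -1.31 in p-nitroanisole rats and -1.19, -1.05 and -1.26 in vehicle rats, and the nearest rats of the groups lay close together. The difference was -0.26 ± 0.09 (SE, n = 3 each), with a limma adjusted p of 0.331. It was -0.31 within slide 1 and -0.14 within row 1.

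The Cyp2j enzymes epoxidise arachidonic acid. For Cyp2j4 the levels were 0.04, 0.30 and -0.19 in p-nitroanisole rats and -0.73, -1.42 and -0.16 in vehicle rats. Vehicle replicate 3 lay just above p-nitroanisole replicate 3, so the groups overlapped at the probe that represents the gene. Vehicle replicate 2 was the lowest array. The difference was 0.82 ± 0.33 (SE, n = 3 each; 95% interval 0.02 to 1.63), with an adjusted p of 0.364 in limma. It was 0.50 without vehicle replicate 2, 1.13 without vehicle replicate 3, 0.94 within slide 1 and 0.58 within row 1. Cyp2j3, the other tested member, ranged from -2.61 to -2.03 in p-nitroanisole rats and from -3.20 to -2.45 in vehicle rats. Its difference was 0.43 (95% interval -0.16 to 1.03; limma adjusted p = 0.485), and 0.21 without vehicle replicate 2. The other tested Cyp2j3 probes gave 0.05, 0.25 and 0.36.

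Among the Cyp2c genes, Cyp2c23, the main arachidonic acid epoxygenase of rat kidney, had levels of 8.43, 8.45 and 8.48 in p-nitroanisole rats and 8.31, 8.36 and 8.40 in vehicle rats. The groups did not overlap, but the difference was small, 0.10 (95% interval -0.05 to 0.25; limma adjusted p = 0.537), and it was 0.0153 after quantile scaling and 0.0412 after median scaling.

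Among the Cyp2b genes, known in liver for their response to phenobarbital, 3 of 6 were tested. Cyp2b2 ranged from -2.40 to -2.07 in p-nitroanisole rats and from -2.38 to -2.30 in vehicle rats, a difference of 0.10 (95% interval -0.15 to 0.34). Cyp2b15 had levels of -4.37, -4.60 and -4.44 in p-nitroanisole rats and -4.24, -4.32 and -4.25 in vehicle rats. The groups did not overlap, with a difference of -0.20 and a limma adjusted p of 0.372. A further tested probe of Cyp2b15 gave 0.44 instead, so its probes disagree in sign. Cyp2b3 gave 0.47 with an adjusted p of 0.475 and was above background on 2 of 3 vehicle arrays.

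The Cyp4f enzymes hydroxylate leukotrienes and fatty acids. Cyp4f6 had levels of 3.63, 3.58 and 3.30 in p-nitroanisole rats and 3.27, 3.23 and 3.18 in vehicle rats. The groups did not overlap, although p-nitroanisole replicate 3 lay next to the vehicle rats. The difference was 0.28 ± 0.10 (SE, n = 3 each), with a limma adjusted p of 0.340, and its other probe gave 0.25. Within slide 1 it was 0.38, and within row 1 it was 0.08. Of the 6 tested Cyp4f genes, 3 were higher and 3 lower, with a median of 0.04 (-0.0113 after median scaling). Cyp4f1, with levels of 6.36, 6.38 and 6.29 in p-nitroanisole rats and 6.14, 6.32 and 6.30 in vehicle rats, differed by 0.10 (95% interval -0.09 to 0.28). Cyp4f5 was low on a single array: -1.31 on p-nitroanisole replicate 1, against -0.39 to -0.16 on the other 5 arrays, and both of its probes showed this.

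**Figure D3:**
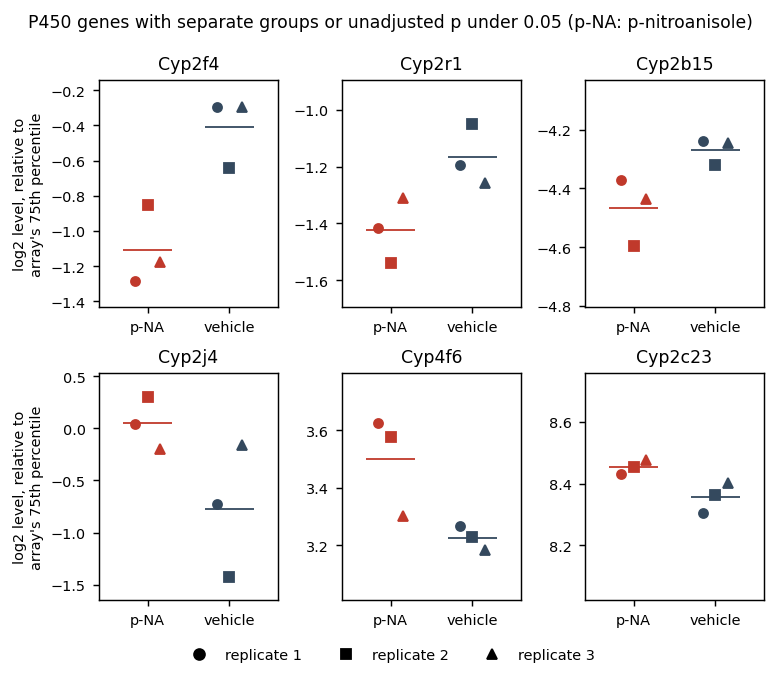
Log2 level on each array (points) and group mean (lines) of the 5 P450 genes without overlap between groups, and of Cyp2j4. Cyp2j4 passed an unadjusted p of 0.05 with overlapping groups at the probe shown. P-nitroanisole arrays are on the left of each panel. The differences are -0.70 for Cyp2f4, 0.82 for Cyp2j4 and 0.10 for Cyp2c23.

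Some members differed widely between rats of 1 group. The standard deviation within groups was over 0.5 for 7 of 38 tested P450 genes (18.4%), against 5.41% of all rows. It was not particular to P450 genes: 3 of 16 tested proximal tubule markers (18.8%), Slc22a7, Slc7a13 and Acsm3, were over 0.5 too. The threshold was chosen after the values were seen, as were the genes described next. They were Cyp2c24, Cyp2d1, Cyp2d5, Cyp2c11, Cyp4a3, Cyp26b1 and Cyp26a1, and the lowest limma adjusted p among them was 0.510.

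Cyp2c24 had levels of -0.27, 0.68 and 0.77 in p-nitroanisole rats and 0.22, -0.58 and -6.89 in vehicle rats. Vehicle replicate 3 was not above background, while the other 5 arrays were. The second probe of the gene gave -2.75, -1.66 and -1.60 in p-nitroanisole rats and -2.02, -2.85 and -8.00 in vehicle rats, again with vehicle replicate 3 at background. The difference of 2.81 (95% interval -1.79 to 7.40) was 0.57 without vehicle replicate 3. The size of that gap is only a bound, since 1 value was at background. The promoter is shown because 1 rat lacked a signal that the other 5 had. It holds TATAAA, in capitals, at 29 bases before the start (GRCr8 chr1:246286141-246286340, plus strand).
Cyp2c24: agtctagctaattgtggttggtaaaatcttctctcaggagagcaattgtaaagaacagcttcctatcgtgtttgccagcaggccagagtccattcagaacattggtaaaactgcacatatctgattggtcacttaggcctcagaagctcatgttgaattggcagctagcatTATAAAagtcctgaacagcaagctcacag

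The Cyp2d enzymes oxidise many amine drugs. Cyp2d5 had levels of 2.80, 4.85 and 4.003 in p-nitroanisole rats and 3.27, 4.39 and 4.60 in vehicle rats, and Cyp2d1 had 2.71, 4.79 and 3.90 in p-nitroanisole rats and 3.10, 4.35 and 4.54 in vehicle rats. These genes spanned 4.13-fold (Cyp2d5) and 4.24-fold (Cyp2d1) across the 6 rats. The group means differed by -0.20 for Cyp2d5 and by -0.19 for Cyp2d1, with 95% intervals that reach from -1.72 to 1.34 for Cyp2d1. The other probe of Cyp2d5 kept the same order of arrays, from 0.80 on p-nitroanisole replicate 1 to 2.99 on p-nitroanisole replicate 2. Cyp2d2 had 2.49, 3.22 and 3.13 in p-nitroanisole rats and 2.47, 3.17 and 2.54 in vehicle rats, and Cyp2d4 had 1.15, 1.25 and 1.32 in p-nitroanisole rats and 1.02, 1.42 and 1.31 in vehicle rats. All 4 tested Cyp2d genes were thus lowest on replicate 1 of each group, with a smaller standard deviation within groups in Cyp2d2 (0.39) and Cyp2d4 (0.16) than in the other pair. The probes' own sequences were not used here, so how far Cyp2d1 and Cyp2d5 probes read each other's transcript was not tested. The bases before the 2 starts are shown because the pair moved together over the rats. The 2 windows are offset, each with an end that the other lacks. Counting those ends, 151 of 235 aligned columns match (64.3%). That share understates the match in the stretch that both windows hold.
Cyp2d1, GRCr8 chr7:115793431-115793630, minus strand: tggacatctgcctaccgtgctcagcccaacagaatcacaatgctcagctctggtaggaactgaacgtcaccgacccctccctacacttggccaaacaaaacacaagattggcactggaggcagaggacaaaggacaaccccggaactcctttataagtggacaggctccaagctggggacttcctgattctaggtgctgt
Cyp2d5, GRCr8 chr7:115784488-115784687, minus strand: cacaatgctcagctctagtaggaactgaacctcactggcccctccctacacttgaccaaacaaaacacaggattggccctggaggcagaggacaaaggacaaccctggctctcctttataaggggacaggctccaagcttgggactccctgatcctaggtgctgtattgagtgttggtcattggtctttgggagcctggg

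The Cyp4a enzymes make a vasoconstrictor from arachidonic acid by hydroxylating its end carbon and are targets of the nuclear receptor PPARA in liver. Cyp4a3 split the rats without regard to group: 6.61, 6.69 and 8.06 in p-nitroanisole rats and 7.73, 7.84 and 6.70 in vehicle rats. The difference was -0.30 (95% interval -1.51 to 0.90), with -0.77 within slide 1 and 0.63 within row 1. Cyp4a2 was nearly flat, at 8.64, 8.67 and 8.59 in p-nitroanisole rats and 8.62, 8.59 and 8.56 in vehicle rats, a difference of 0.04 (95% interval -0.11 to 0.19), with -0.07 after quantile scaling and -0.02 after median scaling. A further Cyp4a2 probe gave -0.23, with p-nitroanisole replicate 3 low at 6.14. Cyp4a1 was also lowest on that array: 5.60, 5.49 and 4.71 in p-nitroanisole rats and 5.55, 5.66 and 5.51 in vehicle rats. Its difference was -0.30 (limma adjusted p = 0.611), -0.03 within slide 1 and -0.86 within row 1. That last value compares p-nitroanisole replicate 3 alone with the vehicle rats. Across the 4 Cyp4a genes the median was -0.17, and 0.0159 without p-nitroanisole replicate 3. The promoters of Cyp4a2 and Cyp4a3 are shown because the values of the 2 genes differed so much in spread. They match at 189 of 204 aligned columns (92.6%), and both hold AGGTCA, in capitals, at 105 bases before the start.
Cyp4a2, GRCr8 chr5:134170909-134171108, minus strand: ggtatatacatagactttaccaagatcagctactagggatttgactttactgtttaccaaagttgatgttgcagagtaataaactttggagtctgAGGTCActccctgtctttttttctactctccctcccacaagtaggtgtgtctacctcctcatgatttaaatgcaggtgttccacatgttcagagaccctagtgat
Cyp4a3, GRCr8 chr5:134352237-134352436, minus strand: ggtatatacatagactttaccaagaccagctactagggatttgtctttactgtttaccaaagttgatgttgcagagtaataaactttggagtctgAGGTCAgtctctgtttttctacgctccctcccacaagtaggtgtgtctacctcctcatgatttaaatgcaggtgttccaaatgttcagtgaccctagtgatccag

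Cyp2c11, a male-typical enzyme of rat liver under growth hormone control, had levels of -3.14, -3.75 and -2.95 in p-nitroanisole rats and -3.98, -2.06 and -3.29 in vehicle rats, with vehicle rats at both ends. Cyp26b1 and Cyp26a1 clear retinoic acid. Cyp26b1 had -0.21, -1.42 and -0.73 in p-nitroanisole rats and 0.18, 0.43 and -0.80 in vehicle rats, a difference of -0.72 (95% interval -1.76 to 0.32; limma adjusted p = 0.510). It was -0.40 without p-nitroanisole replicate 2 and -1.09 without vehicle replicate 3. Cyp26a1 had -3.77, -4.05 and -2.86 in p-nitroanisole rats and -3.08, -3.76 and -3.17 in vehicle rats, a difference of -0.23 that was not separated from its spread.

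**Figure D4:**
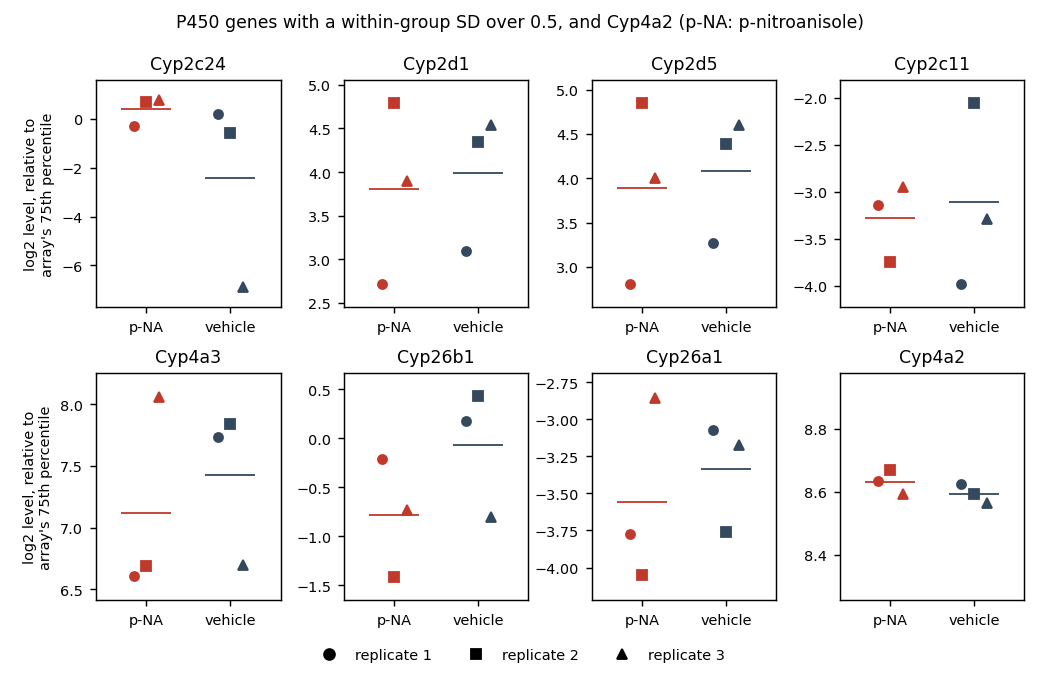
Log2 level on each array (points) and group mean (lines) of the 7 P450 genes with a standard deviation within groups over 0.5, and of Cyp4a2 for comparison. P-nitroanisole arrays are on the left of each panel. Vehicle replicate 3 lies at -6.89 for Cyp2c24, and the groups overlap in all 8 panels.

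The sterol and steroid enzymes among the tested members differed little between groups. Cyp51, Cyp24a1, Cyp27b1 and Cyp11a1, which the rule left out, are not covered by that statement. Cyp27a1, a sterol side-chain hydroxylase, had -0.995, -0.9999 and -1.48 in p-nitroanisole rats and -0.99, -0.90 and -1.04 in vehicle rats, a difference of -0.18 (95% interval -0.55 to 0.18), and of -0.0194 without p-nitroanisole replicate 3. Cyp7b1, an oxysterol hydroxylase, had -0.73, -0.73 and -0.85 in p-nitroanisole rats and -0.71, -0.87 and -1.003 in vehicle rats, a difference of 0.09 (95% interval -0.15 to 0.32). Its other tested probe had the opposite sign, at -0.07. Cyp39a1, another oxysterol hydroxylase, was above background on 1 of 3 p-nitroanisole arrays, with -4.84, -5.42 and -5.78 in that group and -5.39, -5.31 and -5.41 in vehicle rats. Its difference was 0.03, turning to -0.10 after quantile scaling and -0.03 after median scaling.

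Cyp21a1, of adrenal steroid synthesis, had -1.997, -2.27 and -1.98 in p-nitroanisole rats and -2.44, -2.32 and -2.05 in vehicle rats, a difference of 0.18 (95% interval -0.15 to 0.52), and its other probe was above background on no array. Cyp17a1, of androgen synthesis, had -2.51, -2.24 and -2.45 in p-nitroanisole rats and -2.17, -2.22 and -2.41 in vehicle rats, a difference of -0.13 (95% interval -0.39 to 0.13). Cyp11b3 had -4.82, -4.35 and -5.02 in p-nitroanisole rats and -5.17, -4.30 and -4.52 in vehicle rats, a difference of -0.07. Its other tested probe had the opposite sign, at 0.03. In all 3 genes the groups overlapped. Of the 10 adrenal cortex markers, Star, Mc2r, Nr5a1 and Akr1b7 were not above background on any array, while Mrap, Hsd3b1, Hsd3b2, Nr0b1 and Scarb1 were above it on all 6. Hsd3b1 (1.47), Hsd3b2 (0.52) and Scarb1 (0.59) were higher in p-nitroanisole rats without overlap, at limma adjusted p of 0.146, 0.146 and 0.319. The part of adrenal tissue in these values was not tested.

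Of the remaining subfamilies with 1 tested gene, Cyp2a1 had -5.28, -5.07 and -4.45 in p-nitroanisole rats and -5.20, -5.45 and -5.36 in vehicle rats, a difference of 0.40 (95% interval -0.14 to 0.95), and of 0.16 without p-nitroanisole replicate 3. Cyp2s1 had -0.20, -0.24 and -0.11 in p-nitroanisole rats and -0.19, -0.01 and 0.19 in vehicle rats, a difference of -0.18 (95% interval -0.45 to 0.09), and its 4 probes ran from -0.25 to 0.25. Cyp20a1, an enzyme without a known substrate, had 0.73, 0.71 and 0.72 in p-nitroanisole rats and 0.86, 0.87 and 0.71 in vehicle rats, a difference of -0.09 (95% interval -0.27 to 0.08). The groups overlapped in each of these genes.

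Cyp2t1 had 1.42, 1.38 and 1.33 in p-nitroanisole rats and 1.54, 1.36 and 1.49 in vehicle rats, a difference of -0.09 (95% interval -0.27 to 0.09). Cyp4v3, a fatty acid hydroxylase, had -2.02, -2.33 and -1.92 in p-nitroanisole rats and -1.94, -1.87 and -2.23 in vehicle rats, a difference of -0.08. Cyp4b1, which activates furans in lung, had -1.16, -0.98 and -1.23 in p-nitroanisole rats and -0.90, -1.30 and -1.24 in vehicle rats. Its difference was 0.02, and -0.03 after median scaling. Across Cyp2a1, Cyp2s1, Cyp20a1, Cyp2t1, Cyp4v3 and Cyp4b1 the lowest limma adjusted p was 0.482, that of Cyp2a1. The group means of Cyp2d2, Cyp4f18 and Cyp4f40 differed by 0.21, -0.20 and -0.01 in that order, with overlapping groups. Cyp4a8 gave -0.04, while its other probes gave 0.33 and 0.09, and Cyp4f17 gave 0.19, while its other probe gave 0.45. Leaving out 1 array also moved Cyp2b3 to between 0.27 and 0.63, Cyp2d2 to between 0.0791 and 0.44, Cyp21a1 to between 0.0986 and 0.30, Cyp2s1 to between -0.28 and -0.0835, and Cyp4f17 to between 0.12 and 0.29.

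Among the partners that P450 enzymes need, 6 of 10 were higher and 4 lower (median 0.07), and none was called at an adjusted p under 0.05. Por, the P450 reductase, had 3.75, 3.48 and 3.42 in p-nitroanisole rats and 2.68, 3.25 and 2.80 in vehicle rats. The groups did not overlap, with a difference of 0.64 and a limma adjusted p of 0.236. Cyb5a, cytochrome b5, differed by 0.14 (adjusted p = 0.407). The 8 genes of haem synthesis had 4 higher and 4 lower (median 0.00). Alas1, the rate-limiting enzyme of haem synthesis in liver, differed by -0.53 (adjusted p = 0.195), and Fech, which inserts the iron, by 0.35 (adjusted p = 0.159).

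Other known targets of the receptors that induce P450 genes were counted in the same way, and again none was called. Of 10 tested targets of CAR and PXR, 8 were higher and 2 lower, with a median of 0.44. At an unadjusted p under 0.05, 7 were higher and 1, Alas1, was lower, against 13.4% of all rows in either direction. The list was chosen with earlier results of these data known, so this share is a description and not a test. Gsta3, a glutathione transferase, had 6.76, 6.87 and 6.84 in p-nitroanisole rats and 6.27, 6.25 and 6.14 in vehicle rats (difference 0.60, limma adjusted p = 0.0786). Ephx1, the microsomal epoxide hydrolase, had 4.15, 4.15 and 3.74 in p-nitroanisole rats and 3.28, 3.24 and 3.36 in vehicle rats (difference 0.72, limma adjusted p = 0.139). For both genes all 3 p-nitroanisole rats lay above all 3 vehicle rats. Of 4 tested targets of the aryl hydrocarbon receptor, 3 were higher (median 0.27), led by Ugt1a6 at 0.51 (adjusted p = 0.160) and Nqo1 at 0.96 (adjusted p = 0.179). Of the others, Aldh3a1 was nearly flat at 0.03. Ahrr was lower, at -0.78 with overlapping groups (limma adjusted p = 0.444). Of 16 PPARA targets, 12 were lower (median -0.10), with Fabp1 at -0.63 (adjusted p = 0.228). Among 24 receptors and factors, 12 were higher and 12 lower (median 0.02), with Nr1h4, the bile acid receptor, at 0.47 (adjusted p = 0.128) and Vdr, the vitamin D receptor, at 0.72 (adjusted p = 0.170).

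Of 3 tested epoxide hydrolases, which break down epoxides that Cyp2c and Cyp2j enzymes make, 2 were higher (median 0.72). Ephx2, the soluble one, had 2.62, 2.84 and 2.72 in p-nitroanisole rats and 2.06, -1.30 and 2.74 in vehicle rats. Vehicle replicate 2 stood apart and the groups overlapped (difference 1.56, limma adjusted p = 0.549).

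**Figure D5:**
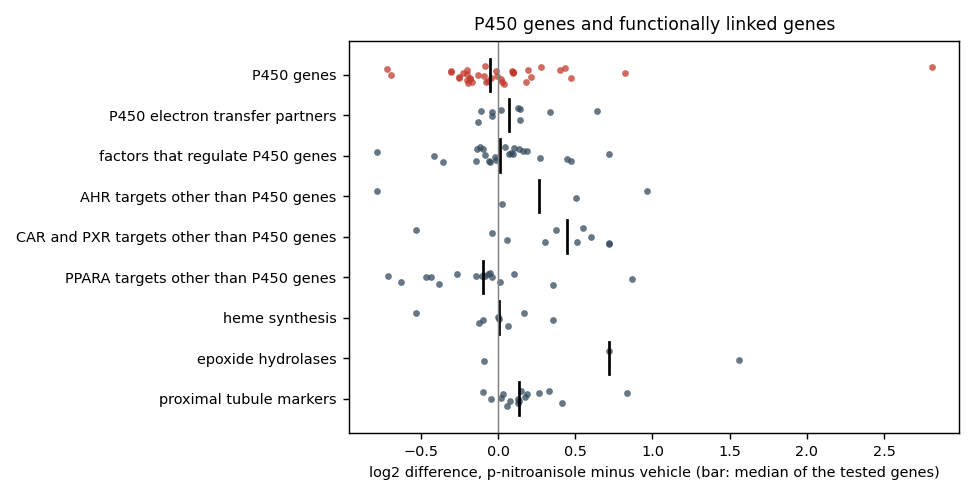
Log2 difference between p-nitroanisole and vehicle rats (points) of the tested P450 genes and of lists of linked genes, with the median of each list (bars). The P450 genes have a median of -0.05, and the CAR and PXR targets one of 0.44.

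Markers of the cells a piece of renal cortex can hold were measured beside these values, and their part in them was not tested. Sums are of linear levels, in units of the 75th percentile of the array. All 16 proximal tubule markers were tested, 14 higher and 2 lower (median 0.13), and their sum ran from 2014 to 2118 in p-nitroanisole rats and from 1903 to 2008 in vehicle rats. Slc4a4 differed by 0.33 (limma adjusted p = 0.174) and Slc22a6, an organic anion transporter, by 0.18. Other proximal tubule markers, picked after their values were seen, varied strongly between rats. Slc7a13, an amino acid transporter, had 3.46, 3.998 and 3.21 in p-nitroanisole rats and 1.83, 3.22 and 4.83 in vehicle rats, Slc22a7, an organic anion transporter, had -3.02, -2.11 and -2.53 in p-nitroanisole rats and -4.62, -3.37 and -2.19 in vehicle rats, and Acsm3 had 2.33, 3.59 and 4.43 in p-nitroanisole rats and 2.47, 2.46 and 4.16 in vehicle rats. In all 3, vehicle replicate 3 was the highest vehicle array, as it was for Cyp2d1 and Cyp2d5. It was the lowest vehicle array for Cyp2c24, Cyp4a3 and Cyp26b1, and lay between the others for Cyp2c11 and Cyp26a1. All 6 principal cell markers were lower (median -0.27), with sums of 175 to 202 in p-nitroanisole and 208 to 233 in vehicle rats, led by Avpr2 at -0.41 and Scnn1b at -0.34. Of 7 thick limb and distal tubule markers 5 were higher (median 0.11, Kcnj1 at -0.14 and Calb1 at 0.33), and of 5 intercalated cell markers 4 were lower (median -0.12, Slc26a4 at -0.20 and Foxi1 at -0.43). Podocyte markers had 5 of 6 lower (median -0.09, Nphs1 at -0.17 and Ptpro at -0.12), and endothelial markers 3 of 7 lower (median 0.00, Emcn at -0.19 and Tek at -0.13).

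Macrophage markers had 5 of 7 lower (median -0.40, C1qb at -0.41 and Mrc1 at 0.52), and all 9 T and NK cell markers were lower (median -0.18, Gzmb at -0.999 and Cd3g at -0.51). Red cell markers were the exception among these lists in that 2 rose: Alas2 by 1.91 (limma adjusted p = 0.0403) and Hbb-b1 by 1.14 (adjusted p = 0.0492). Of their 10 tested genes 9 were higher (median 1.27), with sums of 1227 to 1393 in p-nitroanisole and 579 to 697 in vehicle rats. Adrenal cortex markers had 3 of 5 tested genes higher (median 0.52, values above), with sums of 4.89 to 6.51 in p-nitroanisole and 4.63 to 6.86 in vehicle rats. Mrap, with a difference of -0.16, weighs most in those sums, so they say little about the other adrenal markers. Liver markers had 6 of 9 lower (median -0.03, Ahsg at 0.25 and Fga at -0.35).

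In the 200 bases before the start, RefSeq promoters were found for 32 of the 38 tested genes (the first entry, where a gene had several). The nuclear receptor half-site AGGTCA, on both strands, was in 8 of these 32 and in 11.4% of all 33469 promoters, and TATAAA, on the given strand, in 5 and in 6.59%. The core GCGTG of the aryl hydrocarbon receptor element, on both strands, was in 8 and in 22.7%, and the antioxidant element core TGACNNNGC, on both strands, in 3 and in 8.43%. AGGTCA read on the opposite strand is TGACCT, which shares its first letters with TGACNNNGC, so those motifs can overlap. These counts describe letters in a window.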

How the data were processed

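Each array's deposited file lists an intensity per spot, made by Agilent Feature Extraction (version 10.7.1.1 in the headers, 10.7 in the notes of the submitters). The authors' processed intensity is linear and background-subtracted by that software, and the detection calls (0 or 1) are deposited in the same files. The deposited series matrix holds the same intensity divided by 1 constant per array.

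From these, log2 of the processed intensity (floored at 1) minus the array's 75th percentile was computed. Probes were named by accession through the RefSeq table of assembly GRCr8 (28206 probes, 15645 genes), and a gene was represented by its tested probe with the highest mean. limma 3.58.1 in R 4.3.3 was fitted to all 32197 rows of 6 arrays, with no covariate and Benjamini-Hochberg adjustment over all rows. Described in full were P450 genes called, those without overlap and with an unadjusted p under 0.05, the member with the highest level in each subfamily, and from each of 18 other lists the called genes or the 2 smallest p. One gene that this rule names is not reported here. Genes outside that rule (Cyp2d1, Cyp4a1, Cyp4a3, Cyp2c11, Cyp2c24, Cyp26a1, Cyp2b15, Cyp2j3, Cyp2b3 and Cyp4f5 among them, and markers so described) were chosen after their values were seen. The members and lists were chosen with earlier results of these data known. The fit was also run on simulated rows drawn from its own variance model, without slide or row effects. That run cannot show how the fit handles such effects in these arrays.

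Replicate numbers did not pair the rats: correlations of the deviations of same-numbered rats were -0.009, 0.040 and -0.010. Normexp was run on the median signal in place of the mean signal, an alternative chosen after the files were seen. Alternatives covered scaling, background, filter, probe rule, variance, slide, slide row, replicate block and leaving out each array.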

Additional observations from a re-analysis of the deposited data

How the results depend on the processing

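No P450 gene was called under 17 of the 18 refitted settings, of which the slide block and leaving out p-nitroanisole replicate 3 give the same differences. The remaining setting, the slide row block, compares p-nitroanisole replicate 3 alone with the vehicle arrays, so its calls are not counted. With 3 arrays per group and probes near background, differences under the spread of the rats could not be seen.

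Over all rows, 24 were called, against 0 at an adjusted p under 0.01, 85 with normexp on the median signal, 2 without the filter on dim probes, 14 with the mean of the probes of a gene, 316 with a trended and robust variance, 9 with the slide block and 1000 with the slide row block. Leaving out 1 array gave 0 to 15. With the replicate number as a block 1 row was called, and no P450 gene. No count is given for the slide row block, and the cause of the other shifts was not tested.

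The median over the P450 genes, -0.05, was -0.0966 with quantile scaling, -0.11 with median scaling, -0.00704 with normexp and 0.0923 without the filter. The last takes in all 66 genes, 28 of which give only a bound. The median over all rows, 0.01, moved in the same direction each time, to -0.0158, -0.0449, 0.0389 and 0.0626 in that order. For the P450 genes it was -0.0146 with the mean of the probes, -0.000644 with the slide block and 0.00232 with the slide row block. With 1 array left out it ran from -0.0608 to 0.0361.

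Differences of these P450 genes, none called in the comparison of all 6 arrays, changed sign. With normexp Cyp11b3 was 0.0488 and Cyp2d4 was 0.0235. With the slide block Cyp11b3 was 0.0814, Cyp4a8 was 0.0907 and Cyp4f40 was 0.0831. With the slide row block Cyp26a1 was 0.48, Cyp2c11 was 0.16, Cyp2d4 was 0.0639, Cyp39a1 was -0.41, Cyp4a2 was -0.00188, Cyp4a3 was 0.63, Cyp4b1 was -0.0875, Cyp4f5 was 0.20 and Cyp4v3 was 0.0894. With the mean of the probes Cyp2b15 was 0.12, Cyp4a2 was -0.0975 and Cyp4a8 was 0.12. After quantile scaling Cyp39a1 was -0.0994 and Cyp4a2 was -0.0715. After median scaling Cyp39a1 was -0.0303, Cyp4a2 was -0.0178 and Cyp4b1 was -0.035. With 1 array left out the differences ran over these ranges: Cyp11b3 -0.32 to 0.12, Cyp26a1 -0.58 to 0.019, Cyp2c11 -0.61 to 0.36, Cyp2d1 -0.69 to 0.35, Cyp2d4 -0.13 to 0.0735, Cyp2d5 -0.68 to 0.34, Cyp39a1 -0.23 to 0.24, Cyp4a8 -0.12 to 0.0907, Cyp4b1 -0.0548 to 0.14, Cyp4f18 -0.43 to 0.0528, Cyp4f40 -0.072 to 0.0831, Cyp4f5 -0.48 to 0.0889 and Cyp4v3 -0.19 to 0.0424.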
